A study of Arabidopsis thaliana with 8 samples.

Results

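PRK, SBPASE and PPDK encode enzymes of carbon metabolism. Their transcripts were compared between the psah2k double mutant and WT Arabidopsis thaliana on 1-channel arrays. A gene was included when a feature of the array was assigned to it alone in the platform annotation. Each of the 3 genes had 1 such feature, among 692 features with 1 gene and 3439 features in all: feature 3151 for PRK (AT1G32060), feature 1517 for SBPASE (AT3G55800) and feature 349 for PPDK (AT4G15530). No feature was shared between any of these 3 genes and another gene.

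The tested plants were the Arabidopsis psah2k line, a double mutant of photosystem I in ecotype Columbia 0, measured on 4 arrays. They were set against 4 arrays of WT plants of the same ecotype. Total RNA was hybridised, and the arrays are numbered 1 to 4 within each genotype. The labels differ on the missing proteins: the line name points to subunits H2 and K, and the accompanying description to E1 and K. The sources used here do not give the organ, the age and growth of the plants, the kind of alleles, or whether arrays of 1 genotype carry RNA of different plants. The p-values thus cover no more than the scatter among these arrays, and that scatter may be technical.

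Photosystem I is the thylakoid complex that sends electrons to ferredoxin, from which NADPH for carbon fixation is made. In the stroma the Calvin cycle spends ATP and NADPH to fix CO2 and to rebuild its acceptor, ribulose bisphosphate. SBPASE encodes sedoheptulose-bisphosphatase, which removes a phosphate from a sugar bisphosphate in the regenerating arm of the cycle and commits that carbon to regeneration. PRK encodes phosphoribulokinase, which then phosphorylates ribulose phosphate to make the acceptor itself. Both enzymes are found in photosynthetic tissue and are switched on in the light when thioredoxins reduce their disulfides. PPDK encodes pyruvate orthophosphate dikinase, which makes phosphoenolpyruvate from pyruvate. The enzyme is best known from the leaf carbon pump of plants such as maize, and in Arabidopsis it serves gluconeogenesis and nitrogen remobilisation.

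The values are intensities on a linear scale with a ceiling of 100, and their scaling between arrays is unknown. The arrays of the genotypes differed as a whole. The median feature was at 0.0506 to 0.0582 on the psah2k arrays and at 0.304 to 0.336 on the WT arrays, and 21.5% to 29.5% of features were listed at 0 on psah2k arrays against 13.0% to 13.7% on WT arrays. Each gene is therefore given in 3 ways: its deposited intensity, its percentile rank among all 3439 features of the same array, which no scaling that keeps the order within an array can change, and a limma fit of quantile-normalized log2 values. In bulk RNA, fewer cells of a type and less RNA per cell cannot be told apart. None of the 6 root, 2 seed and 5 green leaf marker genes had a feature of its own, so the organ could not be checked. One leaf marker, RCA, had 2 features that it shares with AT1G73110.

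PRK was bright on every array and rose in psah2k. Its intensity was 3.35, 3.39, 3.93 and 2.93 on psah2k arrays 1 to 4, and 1.46, 1.45, 1.59 and 1.81 on WT arrays 1 to 4. Every psah2k array was above every WT array, and the lowest of them, psah2k 4, stood well clear of the highest WT array, WT 4. The means were 3.40 ± 0.413 in psah2k and 1.58 ± 0.168 in WT (SD, n = 4 each), a ratio of 2.16. Deposited intensities that did not overlap between the genotypes and were higher in psah2k were seen for 5.42% of the 3305 features above 0 on at least 1 array. The quantile-normalized log2 fold change of psah2k minus WT was 1.10 (SE 0.214, limma adjusted p = 0.00361). Of the 2353 features tested in that fit, 26.3% were called higher in psah2k and 26.6% lower.

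The rise of PRK was called under each of 4 scalings of the arrays, but its size followed the scaling. The log2 fold change was 1.11 as deposited, 2.34 after centring arrays on the upper quartile and 3.04 after centring them on the median. Of the 2353 tested features, 7.31% were called higher in psah2k as deposited, 24.1% after upper quartile centring and 34.7% after median centring. Over all tested features the median log2 fold change was −0.12 after quantile normalization, −1.77 as deposited, −0.53 after upper quartile centring and 0.18 after median centring. PRK thus lay 1.22 above that median after quantile normalization and 2.86 to 2.87 above it under the other 3 scalings. PRK was also placed among the 236 tested features with the highest mean intensity over the 8 arrays. Their median deposited log2 fold change was 0.16, and that of PRK exceeded 205 of them, or 86.9%. The mean that picked these features takes in both genotypes, so a feature could enter through the genotype where it was bright.

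By rank PRK was near the top of the arrays of both genotypes. It stood at percentile 96.7, 96.7, 97.5 and 96.8 on psah2k arrays 1 to 4, against 91.5, 91.5, 93.3 and 94.2 on WT arrays 1 to 4. The ranks did not overlap, and all psah2k arrays were higher. The mean difference was 4.26 percentile points (96.9 ± 0.398 in psah2k and 92.7 ± 1.34 in WT, SD, n = 4 each). In a two-sided exact permutation test p was 0.0286, which is as low as 4 against 4 arrays can go, with an adjusted p of 0.0546 over the 3305 features. Ranks without overlap are common in these data: 30.1% of those features were higher in psah2k without overlap and 22.3% lower. The share of higher features takes in every one of them that was at 0 on all WT arrays. A feature at 0 ranks higher on any psah2k array than on any WT array, because more features are at 0 there. Among the 236 brightest tested features 43.2% were higher without overlap, and the rank difference of PRK exceeded that of 56.2% of the 3305 features. With a mean percentile of 92.7 in WT, PRK could rise far less in rank than a feature from the middle of the array. After adjustment the rank test called none of the 3305 features (0.0%), and 1731 of them (52.4%) were at the smallest exact p.

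**Figure D1:**
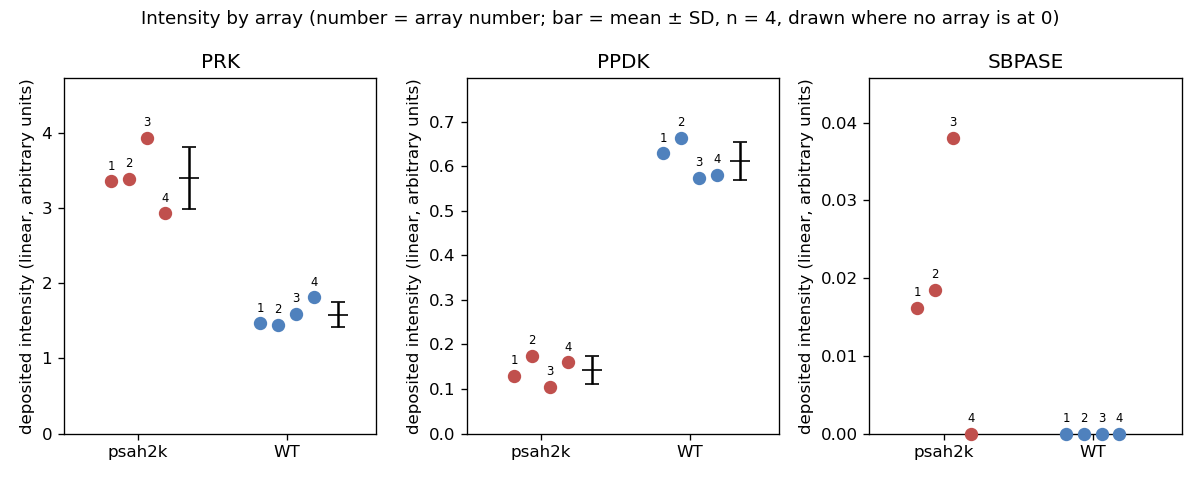
Deposited intensity (linear, arbitrary units, each panel with its own axis from 0) of PRK, PPDK and SBPASE on the 4 psah2k and 4 WT arrays. Points are arrays with their number, and bars are mean ± SD where no array is at 0. PRK averaged 3.40 in psah2k and 1.58 in WT, PPDK 0.142 in psah2k and 0.612 in WT, and SBPASE was above 0 on psah2k arrays 1 to 3 only.

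PPDK had middling to bright signal, and its intensity was far lower in psah2k, about as far as that of the typical feature. The intensity was 0.130, 0.174, 0.105 and 0.160 on psah2k arrays 1 to 4, and 0.629, 0.664, 0.575 and 0.581 on WT arrays 1 to 4. All psah2k arrays lay below all WT arrays, with no overlap. The means of 0.142 ± 0.0309 in psah2k and 0.612 ± 0.0423 in WT (SD, n = 4 each) amount to a fall of 76.8%. That was the direction of most of the array, since 67.4% of the 3305 features were lower in psah2k without overlap of their deposited intensities.

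Against the rest of the array the difference of PPDK was slight. The log2 fold change was −0.55 (SE 0.148, limma adjusted p = 0.0160) after quantile normalization, so PPDK fell in that fit, to −0.43 relative to the median feature. It was −2.13 as deposited (limma adjusted p = 5.77e-05) and −0.90 after upper quartile centring (adjusted p = 0.00315). After median centring it was −0.19 and did not pass the test (limma adjusted p = 0.324), nor did it with a pseudocount or with 0 replaced by a small value (−0.25 and −0.27, limma adjusted p = 0.214 and 0.235). The shares of features called lower were 73.0% as deposited, 33.6% after upper quartile centring and 16.8% after median centring. Under the 4 scalings 36.2% to 40.9% of tested features had a lower log2 fold change than PPDK, so the gene was always close to the middle of the distribution.

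The ranks of PPDK showed the same. It stood at percentile 68.2, 73.2, 64.9 and 73.0 on psah2k arrays 1 to 4, against 73.8, 75.4, 73.8 and 74.2 on WT arrays 1 to 4. The psah2k arrays were all lower, as they were for 22.3% of the 3305 features. Even so, psah2k 2 and psah2k 4 came within 1 percentile point of the lowest WT array. The mean difference was −4.49 percentile points (69.8 ± 4.03 in psah2k and 74.3 ± 0.756 in WT, SD, n = 4 each, exact permutation p = 0.0286, adjusted p = 0.0546). Ranked only among the features with 1 gene, PPDK differed by −0.61 percentile points (exact permutation test, adjusted p = 0.826). Ranked only among the features above 0 on each array, it differed by −10.9 percentile points. Without psah2k 3 the difference over all features was −2.84. PPDK was also set against its own array's median and upper quartile. Both here count features at 0, which the centring above left out. PPDK was 1.87 to 3.44 times the array median on psah2k arrays against 1.89 to 1.98 times on WT arrays. By that measure psah2k 3 was just below the WT range and the other psah2k arrays above it. Set against the upper quartile, it was 0.575 to 0.897 times on psah2k arrays against 0.956 to 1.01 times on WT arrays, with all psah2k arrays lower.

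**Figure D2:**
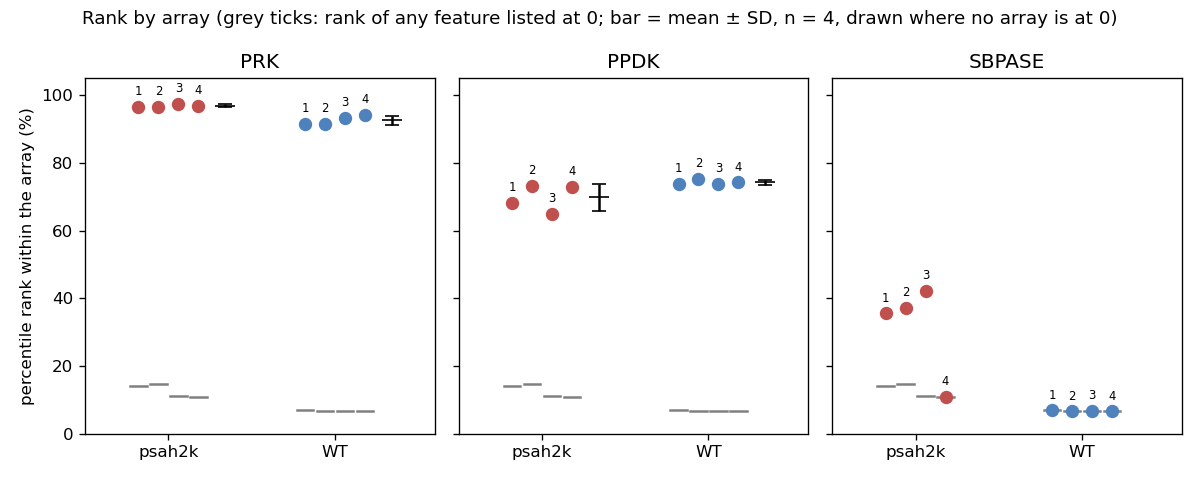
Percentile rank within the array (%) of PRK, PPDK and SBPASE on the 4 psah2k and 4 WT arrays. Points are arrays with their number, bars are mean ± SD where no array is at 0, and grey ticks give the rank that any feature listed at 0 holds on that array. PRK was at 96.7 to 97.5 in psah2k and 91.5 to 94.2 in WT, while the SBPASE points of psah2k 4 and of all WT arrays lie on the ticks.

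PRK and PPDK were compared within each array, where a factor common to the array cancels. The log2 ratio of PRK over PPDK was 4.69, 4.28, 5.23 and 4.19 on psah2k arrays 1 to 4, and 1.22, 1.12, 1.47 and 1.64 on WT arrays 1 to 4. The lowest psah2k array was far above the highest WT array. The ratio averaged 4.60 ± 0.472 in psah2k and 1.36 ± 0.235 in WT (SD, n = 4 each), a difference of 3.24 on the log2 scale. Bright and typical features also diverged on these arrays, with median deposited log2 fold changes of 0.16 over the 236 brightest and −1.77 over all tested features. The 2 features differ in brightness and may respond differently to their targets, so the ratio describes unequal change and not unequal amounts of transcript.

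**Figure D3:**
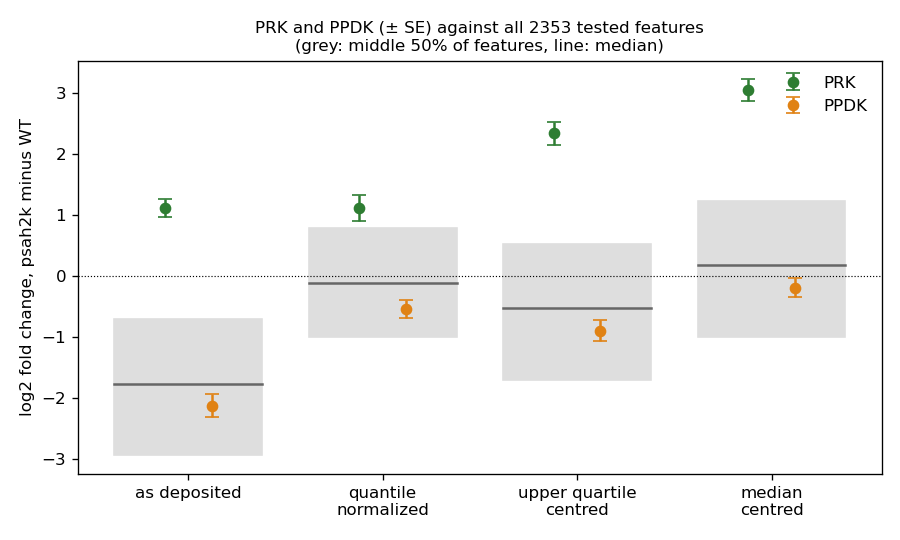
Log2 fold change of psah2k minus WT (y axis) for PRK and PPDK, with the limma SE as bars, under 4 scalings of the arrays (x axis). Grey boxes hold the middle 50% of the 2353 tested features, with a line at their median. PRK lies above the box under every scaling (1.10 to 3.04), and PPDK lies inside it under every scaling (−2.13 to −0.19).

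SBPASE was low or at 0 on every array. It was listed at 0 on all 4 WT arrays and on psah2k 4, and it was at 0.0161, 0.0185 and 0.0381 on psah2k arrays 1, 2 and 3. Those values are low for their arrays, above only 10.1%, 10.9% and 25.4% of the features with a value above 0. The gene had no value in WT, so it was left out of the limma fit, and any fold change depends on the number put in place of 0. The sources used here do not say how the authors arrived at values of 0.

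The rank of SBPASE has to be read with the number of zeros on each array. It was 35.5, 37.2, 42.1 and 10.8 on psah2k arrays 1 to 4, against 6.88, 6.53, 6.76 and 6.56 on WT arrays 1 to 4. Ranks did not overlap (exact permutation p = 0.0286, adjusted p = 0.0546, difference 24.7 percentile points), and 30.1% of the 3305 features were likewise higher. That includes psah2k 4, where SBPASE was at 0 and ranked higher than in WT only because more features share the value of 0 there. A 0 ranked at 10.8 to 14.8 on psah2k arrays and at 6.53 to 6.88 on WT arrays. Any of the 3305 features at 0 on all WT arrays therefore gets this exact permutation p, whatever its psah2k values. The p was thus fixed once SBPASE was at 0 in WT, and it says nothing more about the gene. With every 0 given the same rank of 0, an alternative chosen after seeing the data, psah2k 4 was level with WT and the exact permutation test gave p = 0.143 (adjusted p = 0.237). Of the 390 features at 0 on all WT arrays, 34 were above 0 on exactly 3 psah2k arrays, 9 of them with 1 gene. The mean of the 3 SBPASE values, 0.0242, was close to the median of such means over those 34 features, 0.0245.

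The other genes of these pathways were barely represented. Of 26 listed Calvin cycle genes, PRK and SBPASE alone had a feature of their own. Of 25 listed genes for enzymes and carriers of phosphoenolpyruvate, pyruvate and the leaf carbon pump, 2 did: PPDK and NADP-MDH (AT5G58330). Of 12 genes for the thiol control of the cycle in the light, 2 had one: FTRB (AT2G04700) and NTRC. Of the 5 genes of the 3 lists that the limma fit tested, 3 passed as higher in psah2k after quantile normalization (PRK, FTRB and NTRC) and 1 as lower (PPDK), where 26.3% and 26.6% of all tested features did. NTRC was called lower as deposited, as 73.0% of tested features were, and PPDK lost its call after median centring, so these counts depend on the scaling. The median log2 fold change of the 5 was 1.10, against −0.12 over all tested features.

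NADP-MDH, the plastid malate dehydrogenase that exports reducing power as malate and is itself activated by thioredoxin, had low values in psah2k. Its intensity was 0.0449, 0, 0.0804 and 0.0159 on psah2k arrays 1 to 4, and 0.391, 0.414, 0.418 and 0.439 on WT arrays 1 to 4. All psah2k arrays were lower, as for 67.4% of the 3305 features, and psah2k 2 was listed at 0. The log2 fold change over the other 7 arrays was −1.30 (SE 0.469) and did not pass the test (limma adjusted p = 0.0542), while it did as deposited (−3.43, limma adjusted p = 0.000927), where 73.0% of tested features were called lower. Without psah2k 3 it was −1.75 and passed (limma adjusted p = 0.00864), and without psah2k 4 it was −0.72 (limma adjusted p = 0.0759). By rank psah2k 3, at 59.0, fell among the WT arrays at 56.2 to 64.3 (exact permutation p = 0.0857, adjusted p = 0.140).

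FTRB, the catalytic subunit of the ferredoxin-thioredoxin reductase that hands electrons from ferredoxin to the thioredoxins, had a far higher rank in psah2k. It stood at percentile 79.0, 77.4, 78.9 and 80.1 on psah2k arrays 1 to 4, against 28.8, 26.2, 31.8 and 29.2 on WT arrays 1 to 4. The difference of 49.9 percentile points was higher than that of 99.7% of the 3305 features. The deposited intensity of FTRB differed far less, at 0.244 ± 0.0107 in psah2k and 0.168 ± 0.00928 in WT (SD, n = 4 each). Its log2 fold change was 2.52 after quantile normalization (limma adjusted p = 1.89e-05) and 0.54 as deposited (limma adjusted p = 0.00447). NTRC, a plastid thioredoxin reductase that uses NADPH, was at percentile 74.1 to 78.5 in psah2k and 48.2 to 51.0 in WT, although its deposited intensity was lower in psah2k (0.205 ± 0.0322 against 0.319 ± 0.0246 in WT, SD, n = 4 each). It rose after quantile normalization (log2 1.15, limma adjusted p = 0.000354) and was lower, at −0.65, on the deposited scale (limma adjusted p = 0.00643). On the deposited scale 73.0% of tested features were called lower and the median feature was at −1.77. NTRC lay 1.12 above the median feature there and 1.27 above it after quantile normalization.

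RCA encodes Rubisco activase, and its brighter shared feature was at much the same intensity in both genotypes. The intensity was 1.26, 1.40, 1.41 and 1.35 on psah2k arrays 1 to 4, and 1.40, 1.38, 1.46 and 1.54 on WT arrays 1 to 4. These intensities overlapped between the genotypes, and the log2 fold change of 0.18 did not pass the test (limma adjusted p = 0.403). Its ranks, 93.1 to 94.4 in psah2k against 91.0 to 93.0 in WT, did not overlap (exact permutation p = 0.0286, adjusted p = 0.0546). Higher ranks without overlap were seen for 30.1% of the 3305 features and for 43.2% of the 236 brightest tested features, which include this one. After median and upper quartile centring the same feature passed as higher, at 1.84 and 1.14, as did 34.7% and 24.1% of tested features. Which of RCA and AT1G73110 gives this signal cannot be told from a shared feature. The dimmer shared feature was at 0 on 7 of the 8 arrays and at 0.00748 on psah2k 1.

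**Figure D4:**
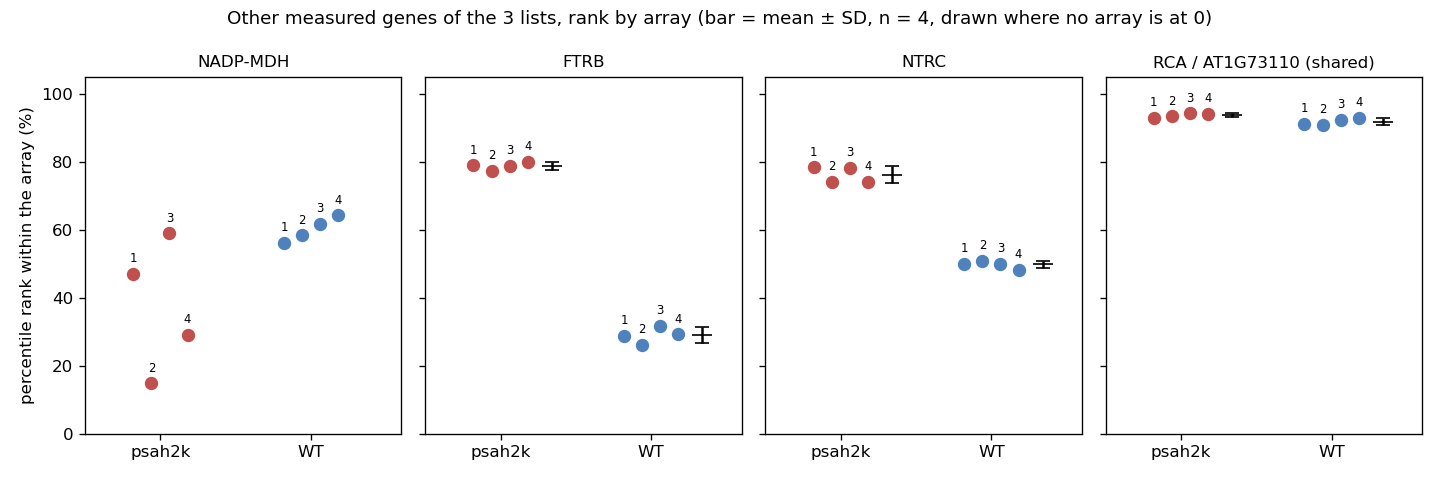
Percentile rank within the array (%) of NADP-MDH, FTRB, NTRC and the brighter feature shared by RCA and AT1G73110 on the 4 psah2k and 4 WT arrays. Points are arrays with their number, and bars are mean ± SD where no array is at 0. FTRB is at 77.4 to 80.1 in psah2k and 26.2 to 31.8 in WT, while the psah2k arrays of NADP-MDH spread widely and overlap with WT.

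The genes with the nearest rank profiles were sought among all features with 1 gene, by the mean absolute difference in percentile rank over the 8 arrays. For PRK they were AT5G66780 (1.05 percentile points), AT1G32730 (1.10) and PSBY (1.13), a small subunit of photosystem II. AT1G32730 had 3.37 ± 0.604 in psah2k and 1.59 ± 0.182 in WT (SD, n = 4 each). For PPDK they were AT3G09050 (2.49), GLR2.7 of the glutamate receptor-like family (3.48) and AT4G33540 (3.52). AT3G09050 had 0.161 ± 0.0362 in psah2k and 0.611 ± 0.0209 in WT (SD, n = 4 each). For SBPASE they were AT5G05330 (3.57), the plastid RNA editing factor OTP85 (4.42) and CKS (4.49). All were at 0 on every WT array, as SBPASE was, which the search itself favours. Among psah2k arrays, AT5G05330 was at 0 on 1, and OTP85 and CKS on 2 each.

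Arrays 1 and 2, and arrays 3 and 4, resembled each other within each genotype, so PRK and PPDK were also compared within these pairs. With numbers 1 and 2 alone the log2 fold change of PRK was 1.12 (limma adjusted p = 0.0114), and with numbers 3 and 4 alone it was 1.09 (limma adjusted p = 0.0485). PPDK had −0.61 (limma adjusted p = 0.0627) and −0.48 (limma adjusted p = 0.185) in those pairs and passed in neither. With each pair averaged to 1 value, both genes kept their direction and missed the threshold (limma adjusted p = 0.0676 for PRK and 0.114 for PPDK).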

How the data were processed

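The deposited table holds 1 intensity per feature and array. The sources used here do not say how the authors made, scaled or bounded these intensities. Groups come from the sample titles, per the labels. Gene names come from GEO's annotation of the platform, and 690 of the 692 features with 1 gene matched the TAIR10.1 RefSeq table. The members and gene lists were chosen with earlier results of these data known. Named were the 3 members, every list gene with a feature of its own, and the 3 nearest rank profiles of each member. The features shared by RCA were added after their values were seen.

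Values of 0 were missing for log2 and kept for ranks, where ties take their average rank. Features with at least 3 values above 0 in each genotype were tested with limma 3.58.1 in R 4.3.3 (quantile normalization, lmFit, eBayes, two-sided, Benjamini-Hochberg over 2353 features, threshold 0.05). Exact permutation tests over the 70 splits of the arrays compared ranks. On simulated data with 200 of 2353 features changed, limma recovered 50% of the 1-unit and 75% of the 2-unit log2 changes, and 5.30% of its calls were false. Shifts of whole arrays were not simulated. The number of arrays limits the precision.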

Additional observations from a re-analysis of the deposited data

Results flagged for a closer look

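The dimmer of the 2 features shared by RCA and AT1G73110 was at 0.00748 on psah2k 1 and at 0 on the other 3 psah2k arrays, so that 1 array stood apart from its group. It was picked by Dixon's criterion for 4 samples, which picks about 1 in 20 groups by chance when values are not tied. With 3 values at 0 and 1 above, a group is always picked, so the flag says nothing about this feature. Of the 390 features at 0 on all WT arrays, 121 (31.0%) were above 0 on exactly 1 psah2k array. PRK, PPDK and SBPASE had no array that met it, in intensity, rank or normalized log2 value.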

How the results depend on the processing

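Over all features the 1246 calls became 1890 as deposited (172 higher and 1718 lower, against 620 and 626), 689 with numbers 1-2 and 3-4 averaged and 820 with only numbers 3 and 4. The split was 817 higher to 396 lower after median centring and 567 to 790 after upper quartile centring. PRK kept its direction and its call under the other alternatives, missing the threshold with the averaged pairs at the same log2 1.10. PPDK missed it after median centring (−0.19), with 0 replaced by the array's smallest positive value (−0.27), with a pseudocount of 0.0156 (−0.25), with averaged pairs (−0.55) and with only numbers 1 and 2 (−0.61) or 3 and 4 (−0.48). Leaving out each array in turn gave 0.92 to 1.26 for PRK and −0.62 to −0.45 for PPDK, with no call lost. SBPASE was left out of the other limma fits. It had log2 7.31 with 0 replaced by the array's smallest positive value and 2.02 with the pseudocount (limma adjusted p = 0.0446 and 0.0305). Its size was thus set by the number put in place of 0. Of the 3305 features tested under these 2 settings, 733 and 782 were called higher. Ranked only among features above 0 on the array, PPDK differed by −10.9 percentile points. NTRC changed sign to −0.65 as deposited, where the median tested feature was at −1.77 and NTRC thus still above it. NADP-MDH, not called otherwise, passed under 6 alternatives. Deviations from the genotype mean correlated at 0.0561 to 0.126 between arrays of the same number in the other genotype. Arrays of unlike number across the genotypes were all lower, at −0.0991 to 0.0371, so weak pairing by number was not excluded. With the replicate block 1087 features were called, and PRK and PPDK kept their calls (limma adjusted p = 0.00820 and 0.0382). The exact permutation tests of ranks with the numbers as blocks cannot go below p = 0.125, and with pairs averaged not below 0.333. For SBPASE, with no WT value, the rank difference among features above 0 on an array and the log2 fold change under the remaining settings could not be computed.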
